A study of Mus musculus with 22 samples.

Results

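The TNF superfamily was followed in the mouse spinal cord before and after contusion, in mice whose astrocytes carry a block of NF-κB and in their wild-type (WT) littermates. Members were all probes annotated with 1 gene symbol that begins with Tnfsf or Tnfrsf, together with Tnf, Lta, Ltb, Ltbr, Fas, Fasl, Cd27, Cd40, Cd40lg, Cd70, Eda, Edar and Eda2r. This gave 125 of 43379 probes and 44 of 19087 named genes, of which 18 encode ligands, 6 encode receptors with a death domain, 16 encode receptors without one and 4 encode decoy or soluble receptors. Of the 44 genes, 26 had 1 probe and 18 had several. The probe of the lowest number stands for a gene unless stated otherwise, and no member was dropped for low signal.

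The transgenic mice (IκBα-dn mice) express a truncated, dominant-negative form of IκBα under the GFAP promoter, so that NF-κB is blocked in astrocytes and in other cells only as far as that promoter is active there. They were heterozygous, and both genotypes were C57BL/6 females of 3 to 4 months. The 8 groups were IκBα-dn mice that were naive or had received a contusion of the thoracic cord 3 days, 3 weeks or 6 weeks earlier, and WT mice in the same 4 states. RNA came from a segment of cord centred on the lesion. Each group held 3 mice except WT at 3 weeks, where 2 were used. Every 2-colour array set 1 mouse against another, and of the 21 arrays used 10 held both genotypes at the same time (3 of naive mice, 2 each of mice at 3 days and 3 weeks, and 3 of mice at 6 weeks) and 11 held 2 time points of 1 genotype (6 IκBα-dn and 5 WT). Values are log2 ratios, so a level can be given only against another group, and the value of a single mouse cannot be separated from that of its partner on the array. The fitted effect of the dyes, called at 58.3% of all probes, was subtracted from the ratios of single arrays.

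Ligands of this family are trimers, most of them held in the cell membrane, from which some are cleaved. They cluster their receptors, which recruit TRAF adaptors and the IKK complex and so release NF-κB from IκBα. Receptors with a death domain can in addition recruit FADD and caspase-8 and start apoptosis, and decoy receptors bind ligand without signalling. TNF itself acts through TNFR1 (Tnfrsf1a), which most cells express, and TNFR2 (Tnfrsf1b), which is found mainly on immune, endothelial and glial cells and responds best to the membrane-bound form. In the spinal cord the TNF receptors are studied for their opposed parts in cell loss and in remyelination. Several members (Tnf, Lta, Ltb, Fas, Cd40) are themselves known target genes of NF-κB.

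Because NF-κB binds the κB consensus, the 250 bases before each annotated transcript start (RefSeq, GRCm38.p6) were searched for it on both strands. A window was given for 34 of the 44 genes, and 4 of 38 windows (10.5%) held a match, against 7.25% of 32851 windows of all genes. The matches lay in Ltb, Tnfrsf8, Tnfrsf9 and Tnfrsf25. The windows of Tnf, Lta and Fas, named above as known targets of NF-κB, held none, so the search misses known targets. Whether NF-κB acts on any of the members was not tested. Of the 12 members higher in IκBα-dn mice at 6 weeks, 10 had a window and 1 of them, Tnfrsf25, held a match. A window is printed for each of 4 of those 12 genes, all on chromosome 4: Tnfrsf25, the neighbouring genes Tnfrsf4 and Tnfrsf18, and Tnfrsf1b. Tnfrsf25 has 2 windows, of which the one with the match is shown (chr4:152116093-152116342, plus strand); capitals mark the match, which begins 28 bases before that start, and the other window (chr4:152115684-152115933, plus strand) holds none. The windows of Tnfrsf4 (chr4:156013445-156013694, plus strand), Tnfrsf18 (chr4:156026072-156026321, plus strand) and Tnfrsf1b (chr4:145246871-145247120, minus strand) hold none.
Tnfrsf25: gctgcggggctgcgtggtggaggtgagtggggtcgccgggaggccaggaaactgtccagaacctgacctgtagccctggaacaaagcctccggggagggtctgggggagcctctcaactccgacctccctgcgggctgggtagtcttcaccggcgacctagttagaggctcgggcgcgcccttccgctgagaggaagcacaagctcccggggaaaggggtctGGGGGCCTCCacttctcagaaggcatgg
Tnfrsf4: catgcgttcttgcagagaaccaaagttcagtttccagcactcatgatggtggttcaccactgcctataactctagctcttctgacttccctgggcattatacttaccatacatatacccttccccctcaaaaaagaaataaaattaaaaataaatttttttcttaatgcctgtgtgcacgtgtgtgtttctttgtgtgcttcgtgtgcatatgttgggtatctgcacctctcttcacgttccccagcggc
Tnfrsf18: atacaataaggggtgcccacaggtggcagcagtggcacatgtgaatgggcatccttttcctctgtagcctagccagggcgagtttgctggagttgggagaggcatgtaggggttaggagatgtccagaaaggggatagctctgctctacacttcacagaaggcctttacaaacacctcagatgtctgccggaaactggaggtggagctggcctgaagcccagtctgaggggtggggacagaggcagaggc
Tnfrsf1b: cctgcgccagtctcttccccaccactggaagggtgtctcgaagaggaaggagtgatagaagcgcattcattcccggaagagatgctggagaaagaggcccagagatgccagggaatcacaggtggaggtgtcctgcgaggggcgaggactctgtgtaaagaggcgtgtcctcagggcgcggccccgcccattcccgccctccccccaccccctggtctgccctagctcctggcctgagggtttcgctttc

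At 6 weeks after contusion, 10 of the 26 receptors of the TNF superfamily had higher RNA levels in IκBα-dn mice than in their WT littermates, while TNF itself did not pass the test. Of the 44 genes, limma called 12 higher and 1 lower at a Benjamini-Hochberg adjusted p under 0.05 (n = 3 mice per genotype), where 7.87% of all probes were called higher and 12% lower, 19.9% in either direction. These 10 receptors were Tnfrsf1b, Tnfrsf13b, Tnfrsf18, Tnfrsf4, Ltbr and Tnfrsf19 of the 16 without a death domain, Fas and Tnfrsf25 of the 6 with one, and Tnfrsf11b and Tnfrsf26 of the 4 decoy or soluble receptors. Among the 18 ligands Tnfsf13 and Tnfsf10 were higher and Tnfsf13b was lower. The median log2 difference between genotypes was 0.26 over the 44 genes and 0.02 over all probes, and 34 of the 44 genes were above 0, as were 53.2% of all probes. The median was 0.06 for ligands, 0.31 for death-domain receptors, 0.34 for receptors without a death domain and 0.37 for decoy or soluble receptors. On the 3 arrays that held both genotypes at 6 weeks, 21 members were above 0 on every array and 4 were below 0 on every array, which of all probes 26% and 26.4% were.

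**Figure D1:**
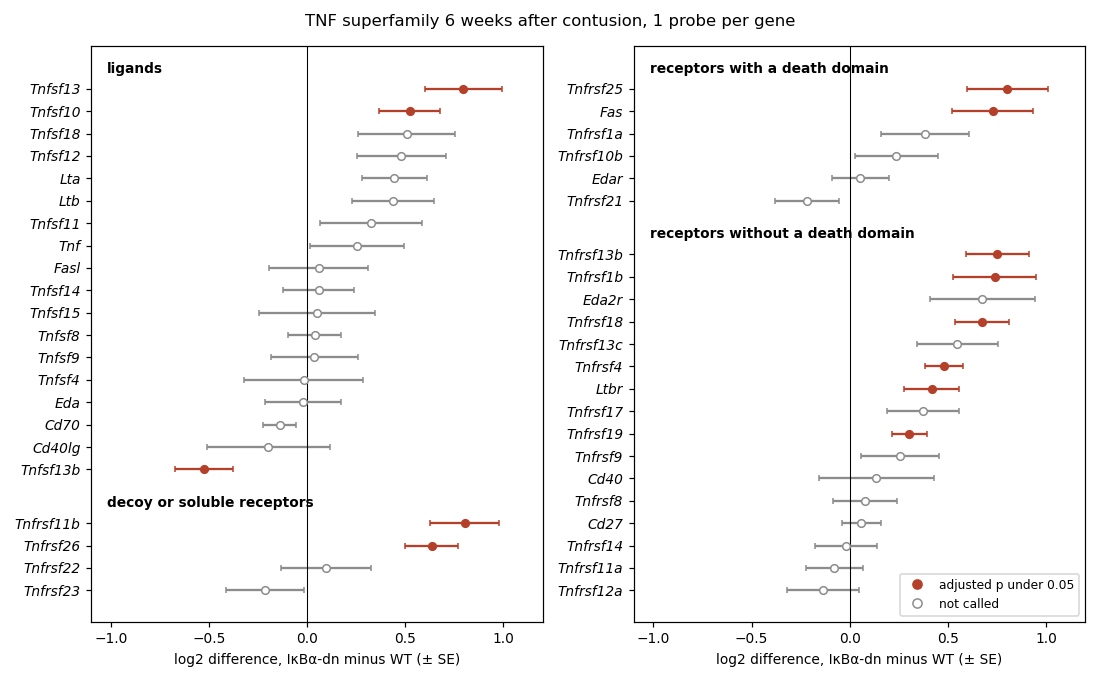
Log2 difference, IκBα-dn minus WT mice, 6 weeks after contusion (x axis, ± SE) for the 44 members by role, with filled red points at an adjusted p under 0.05. The called points lie to the right of 0 for 12 genes, 10 of them receptors, and to the left for Tnfsf13b.

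The call of these genes rests on the arrays that held both genotypes at 6 weeks. Without those 3 arrays 0 of the 44 genes were called, and a fit of only the arrays with both genotypes called 8. Leaving out the 3 arrays also removes WT mouse 3 at 6 weeks, which is on no other array used. The share of all probes called in these and the following fits is not given here. The counts therefore do not show whether a loss of calls is particular to these genes. When 1 mouse was left out, the calls numbered 5 for WT mouse 1, 6 for mouse 2 of either genotype, 8 for IκBα-dn mouse 3, and 10 and 11 for the others. The calls of Tnfrsf4, Tnfrsf18 and Tnfrsf13b were lost only without the 3 arrays, among 19 alternatives, whereas Ltbr lost its call in 11, Tnfsf10 in 9 and Tnfrsf19 in 8.

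Tnfrsf1b, which encodes TNFR2, was higher in IκBα-dn mice at 6 weeks by 0.74 on the log2 scale (SE 0.21, 1.67-fold, adjusted p = 0.0206). The log2 ratios of IκBα-dn over WT mice were 0.46, 0.70 and 0.94 on the 3 arrays. All 3 lay above 0. Of its 11 probes 9 were called, and over all 11 the differences ran from 0.15 to 0.80. The call was lost in 6 of 19 alternatives, among them the fit of only the arrays with both genotypes and those without mouse 2 or 3 of IκBα-dn mice or mouse 1 or 2 of WT mice. At the other times no difference passed the test. The arrays gave −0.06, 0.16 and 0.26 in naive mice, 0.17 and 1.37 at 3 days, and −0.38 and −0.06 at 3 weeks.

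Tnfrsf1a, which encodes TNFR1, gave array ratios of 0.24, 0.33 and 0.36 at 6 weeks. These lay close together and above 0, but the fitted difference of 0.38 (SE 0.22, adjusted p = 0.262) did not pass the test, and 0 of its 10 probes did, with values of 0.24 to 0.43. Tnf gave −0.05, 0.40 and 0.42 (difference 0.25, SE 0.24, adjusted p = 0.525), with 0 of 10 probes called and probe values of −0.31 to 0.40. The lymphotoxins, of which Lta also binds the TNF receptors, had differences of 0.44 (SE 0.17, adjusted p = 0.0711) for Lta and 0.44 (SE 0.21, adjusted p = 0.162) for Ltb. On all 3 arrays both lymphotoxins were above 0, and 3 of the 10 Lta probes passed the test. Ltbr, the lymphotoxin β receptor, was higher by 0.42 (SE 0.14, adjusted p = 0.0446), with array ratios of 0.37, 0.39 and 0.38. These 3 ratios were nearly equal.

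Fas, the death receptor of the FAS ligand, was higher by 0.73 (SE 0.21, 1.66-fold, adjusted p = 0.02), with ratios of 0.40, 0.87 and 0.79 on the 3 arrays and all 11 of its probes called (0.62 to 0.81). It lost its call in 5 of 19 alternatives, 4 of which left out the same mice as for Tnfrsf1b. Its ligand Fasl gave −0.25, 0.46 and 0.08 (difference 0.06, SE 0.25), on both sides of 0, and 0 of its 11 probes passed. Tnfrsf25, which encodes the death receptor DR3 of T cells, was higher by 0.80 (SE 0.21, 1.75-fold, adjusted p = 0.0115). Its ratios of 0.69, 0.88 and 0.71 lay above all 7 ratios at the earlier times, the highest of which was 0.26. Its other probe differed by 0.01 (SE 0.15). Its ligand Tnfsf15 (TL1A) was not called (0.05, SE 0.29), and the arrays ran from −0.85 to 1.39. Tnfsf10, which encodes the apoptosis-inducing ligand TRAIL, was higher by 0.52 (SE 0.16, adjusted p = 0.0258), whereas its death receptor Tnfrsf10b (0.24, SE 0.21) and the mouse decoy receptors Tnfrsf22 (0.10, SE 0.23) and Tnfrsf23 (−0.21, SE 0.20) did not pass the test.

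Among receptors that co-stimulate T cells, Tnfrsf18 (GITR) and Tnfrsf4 (OX40) were higher in IκBα-dn mice. Tnfrsf18 gave 0.50, 0.69 and 0.95 on the 3 arrays (difference 0.68, SE 0.14, 1.6-fold, adjusted p = 0.00241), and Tnfrsf4 gave 0.70, 0.48 and 0.25 (difference 0.48, SE 0.10, 1.4-fold, adjusted p = 0.0025). All 6 ratios were above 0, and the array with the highest Tnfrsf18 ratio had the lowest Tnfrsf4 ratio. Their ligands were not called: Tnfsf18 differed by 0.51 (SE 0.25, adjusted p = 0.173) and Tnfsf4 by −0.02 (SE 0.30). The other co-stimulatory receptors Tnfrsf9 (4-1BB), Cd27, Tnfrsf8 (CD30) and Tnfrsf14 (HVEM) had differences between −0.02 and 0.26 and were not called either. Cd40, the receptor of Cd40lg, was not called (0.14, SE 0.29).

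In the group that regulates B cells and plasma cells, the ligand Tnfsf13 (APRIL) and the receptor Tnfrsf13b (TACI) were higher in IκBα-dn mice, while the ligand Tnfsf13b (BAFF) was lower. Tnfsf13 gave 0.79, 0.98 and 0.57 on the 3 arrays (difference 0.80, SE 0.19, 1.74-fold, adjusted p = 0.00842). Tnfrsf13b gave 0.56, 0.73 and 0.72 (difference 0.75, SE 0.16, 1.68-fold, adjusted p = 0.00334). For both genes every array lay well above 0. Tnfsf13b gave −0.80, −0.29 and −0.41 (difference −0.53, SE 0.15, adjusted p = 0.0194), all below 0. The second probes of this pair did not follow: that of Tnfsf13b differed by 0.32 (SE 0.11, adjusted p = 0.0512), in the opposite direction, and that of Tnfrsf13b by 0.10 (SE 0.13). The receptors Tnfrsf13c (BAFF receptor; 0.55, SE 0.21, adjusted p = 0.0757) and Tnfrsf17 (BCMA; 0.38, SE 0.18, adjusted p = 0.174) were above 0 on all 3 arrays and were not called.

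Tnfrsf11b, the soluble receptor osteoprotegerin that captures RANKL and TRAIL, was higher by 0.80 (SE 0.17, 1.75-fold, adjusted p = 0.004), with array ratios of 0.50, 1.19 and 0.50. The array with mouse 2 of each genotype was the highest, and without either of these mice the call was lost. RANKL (Tnfsf11; 0.33, SE 0.26) and its receptor RANK (Tnfrsf11a; −0.08, SE 0.15) were not called. Tnfrsf26, a receptor of the mouse cluster on chromosome 7 that also holds Tnfrsf22 and Tnfrsf23, was higher by 0.63 (SE 0.14, 1.55-fold, adjusted p = 0.00369; arrays 0.45, 0.58 and 0.95). Tnfrsf19 (TROY), known as a co-receptor of the Nogo receptor in neurons, was higher by 0.30 (SE 0.09, 1.23-fold, adjusted p = 0.022; arrays 0.26, 0.39 and 0.20). Tnfrsf19 showed the smallest called difference among the members. The ectodysplasin receptor Eda2r had a larger one (0.68, SE 0.27) that did not pass (adjusted p = 0.0893), with 0.28, 1.09 and 1.24 on the arrays.

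**Figure D2:**
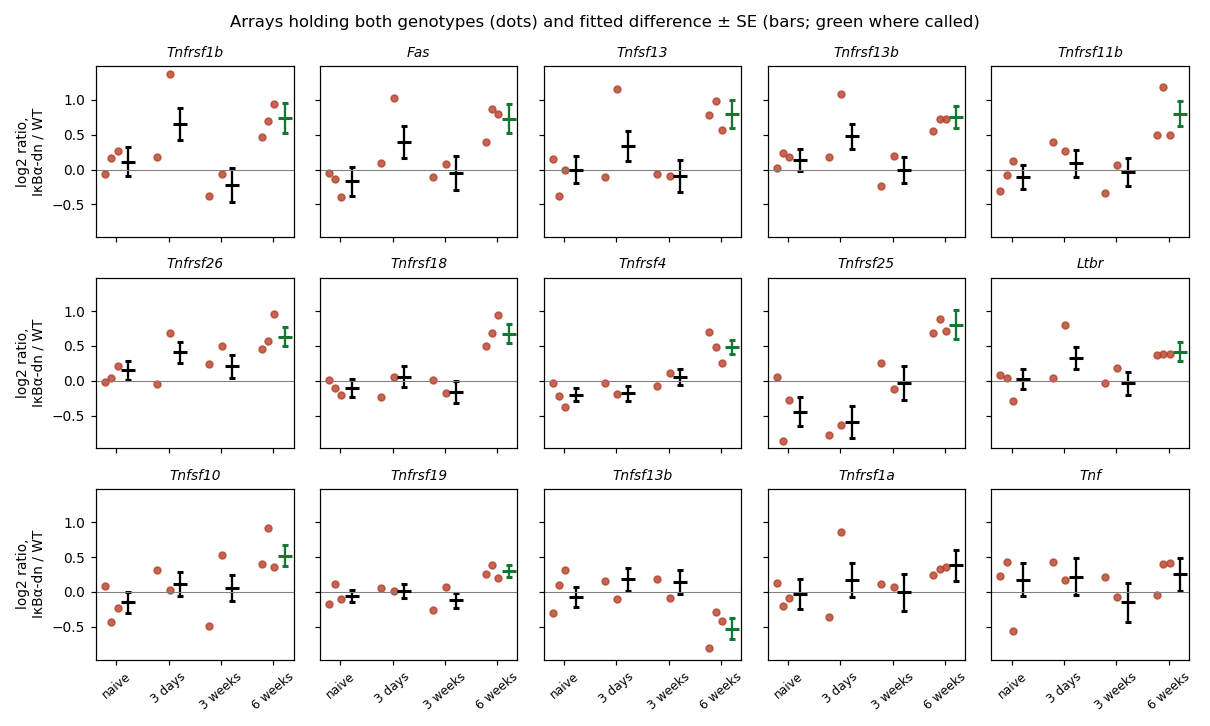
Log2 ratio of IκBα-dn over WT mice on each array that held both genotypes, dye effect removed (points), and the fitted difference ± SE (bars, green at an adjusted p under 0.05) in naive mice and at 3 days, 3 weeks and 6 weeks, for 15 members. Shown are the 13 of 44 members called at 6 weeks, with Tnfrsf1a and Tnf, so the 13 green bars at 6 weeks follow from this choice. At 3 days the ratios of the 2 arrays lie far apart in Tnfrsf1b, Fas, Tnfsf13, Tnfrsf13b and Tnfrsf1a.

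Set out by known ligand and receptor pairs, 28 pairs of 18 ligands and 23 receptors could be read at 6 weeks. In 9 pairs the receptor was called and the ligand was not, in 6 the ligand was called and the receptor was not, in 2 both were called and in 11 neither was. The pairs with both called were Tnfsf13 with Tnfrsf13b, both higher, and Tnfsf13b with Tnfrsf13b, of which the ligand was lower and the receptor higher. Both pairs rest on the probe that stands for Tnfrsf13b, whose other probe was not called. The pair with Tnfsf13b rests also on the probe that stands for Tnfsf13b, whose other probe went the opposite way and was not called. The list of pairs is not complete: Tnfsf10 with Tnfrsf11b, which captures TRAIL as stated above, was not in it. Both of these genes were called higher (0.52 and 0.80), so the counts hold only for the pairs listed. A gene enters a pair count as often as it has partners, so the pairs are not independent of each other.

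Several probes of a gene did not always move together. Fas, Tnfrsf1a and, but for 2 probes at 0.15 and 0.31, Tnfrsf1b had probes of like value. The other 2 probes of Tnfrsf21, which encodes death receptor 6, were lower in IκBα-dn mice at 6 weeks, with differences of −0.84 (SE 0.10, adjusted p = 5.32e-05) and −0.60 (SE 0.08, adjusted p = 8.49e-05), whereas the probe that stands for the gene differed by −0.22 (SE 0.16, adjusted p = 0.403). Of the 125 probes of the family 33 were called higher and 3 lower, where 7.87% and 12% of all probes were, but 11 of the 33 read Fas, 9 read Tnfrsf1b and 3 read Lta, so that the count largely repeats the same genes. In the annotation, the probes that stand for Tnfsf13b, Tnfrsf13b and Tnfrsf21 carry the record of a cDNA clone. Their other probes carry a RefSeq record. The calls of Tnfsf13b and Tnfrsf13b thus rest on the choice of the probe of the lowest number. So does that of Tnfrsf25, whose other probe lay near 0. With the mean of each gene's probes, Tnfsf13b, Tnfrsf25 and Tnfrsf19 lost their calls between genotypes at 6 weeks, and Tnfrsf13b kept its call. What each probe detects in these cords was not tested.

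**Figure D3:**
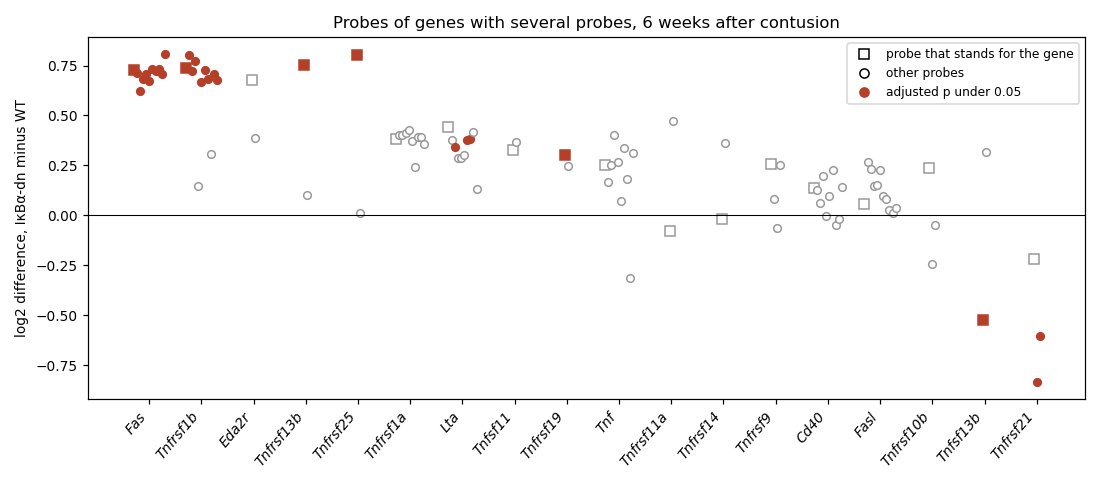
Log2 difference, IκBα-dn minus WT mice, at 6 weeks (y axis) for every probe of the 18 genes with several probes, with squares for the probe that stands for the gene and red fill at an adjusted p under 0.05. The 11 Fas probes lie between 0.62 and 0.81, while the probes of Tnfsf13b, Tnfrsf13b and Tnfrsf25 lie apart.

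In naive mice and at 3 days and 3 weeks, limma called 0 of the 44 genes between genotypes, where 0% of all probes were called at each of these times. At an unadjusted p under 0.05, 0 genes were higher and 1 lower in naive IκBα-dn mice, 3 higher and 1 lower at 3 days, and 0 higher and 1 lower at 3 weeks, which of all probes 1.05% and 1.69%, 3.05% and 3.85%, and 1.11% and 1.11% were. The members' median SE was between 0.19 (naive mice) and 0.23 (3 weeks) at the 4 times. The 2 arrays at 3 days differed widely. The one with IκBα-dn mouse 1 against WT mouse 2 gave 1.37 for Tnfrsf1b, 1.03 for Fas, 1.15 for Tnfsf13 and 1.08 for Tnfrsf13b, while the other, with mouse 3 of each genotype, gave 0.17, 0.09, −0.11 and 0.18. Genes of microglia and macrophages had a median log2 ratio of 0.98 on the first of these arrays and 0.06 on the other (17 genes), and their part in the difference was not tested.

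After contusion, several receptors and Tnfsf13 were higher than in naive mice of the same genotype at 3 days, and in IκBα-dn mice again at 6 weeks. In IκBα-dn mice 9 of the 44 genes were called higher and 0 lower at 3 days, 1 higher and 0 lower at 3 weeks, and 16 higher and 1 lower at 6 weeks. Of all probes 5.17%, 0.606% and 11.6% were called higher (and 14.2% lower at 6 weeks), and 6.44%, 0.634% and 25.8% in either direction. In WT mice the counts were 4, 1 and 0 higher and 0 lower, against 1.8%, 1% and 0.632% of all probes higher and 1.98%, 1.07% and 0.724% in either direction. At an unadjusted p under 0.05, 6 members were higher and 0 lower in WT mice at 6 weeks, as were 5.58% and 5.3% of all probes. In both genotypes the median SE of a member was between 0.22 and 0.25 at each time.

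**Figure D4:**
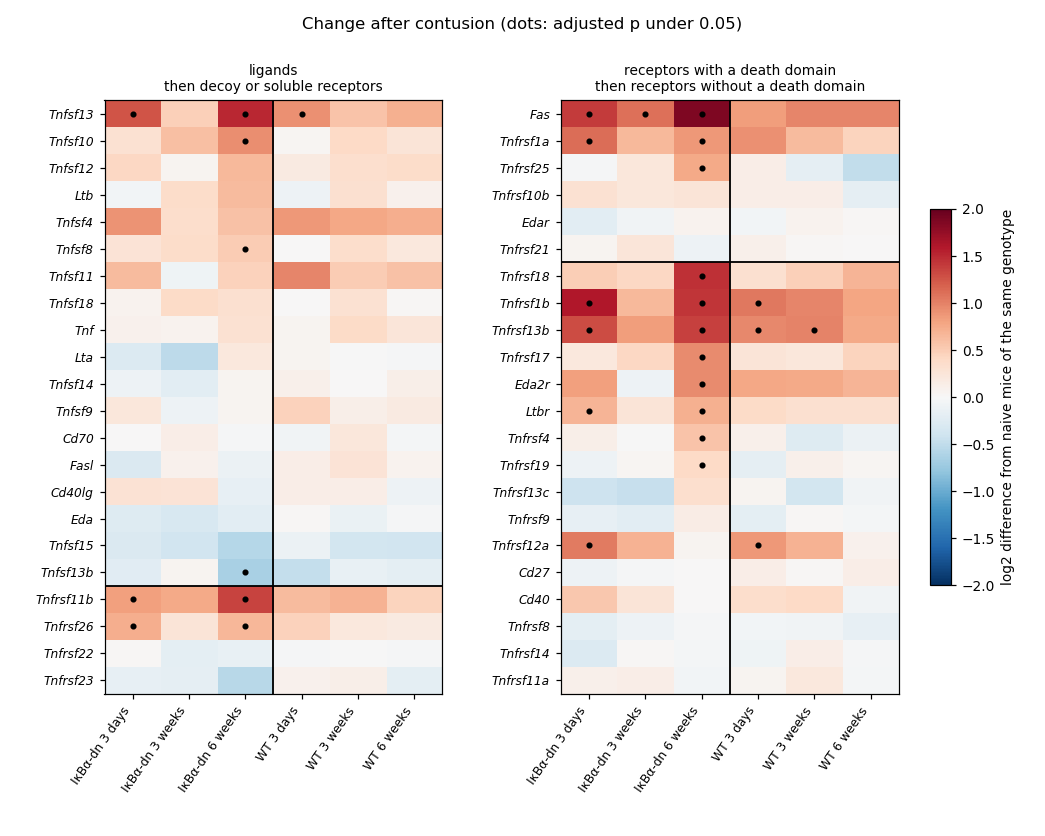
Log2 difference from naive mice of the same genotype (colour scale, −2 to 2) for the 44 members by role at 3 days, 3 weeks and 6 weeks in IκBα-dn mice (left 3 columns of each panel) and in WT mice (right 3 columns), with dots at an adjusted p under 0.05. The column of IκBα-dn mice at 6 weeks holds 17 dots and that of WT mice at 6 weeks holds 0.

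At 3 days Tnfrsf1b was the most raised member in both genotypes, by 1.61 ± 0.25 (SE; adjusted p = 0.00104) in IκBα-dn mice and by 1.06 ± 0.24 (adjusted p = 0.0362) in WT mice. The single arrays of 3 days over naive gave 1.47 for IκBα-dn mice and 1.76 for WT mice. Tnfrsf13b was higher by 1.30 (adjusted p = 0.000714) in IκBα-dn mice and by 0.96 (adjusted p = 0.0237) in WT mice, and Tnfsf13 by 1.26 (adjusted p = 0.003) in IκBα-dn mice and 0.92 (adjusted p = 0.0463) in WT mice. The second probe of Tnfrsf13b gave −0.06 (SE 0.15) in IκBα-dn mice and −0.11 (SE 0.15) in WT mice, and the mean of both probes was not called in WT mice (0.43). Tnfrsf12a, which encodes Fn14, the receptor of TWEAK that is induced in many injured tissues, was higher by 1.04 (adjusted p = 0.0078) in IκBα-dn mice and by 0.86 (adjusted p = 0.0475) in WT mice. These 4 were all of the WT calls and 4 of the 9 in IκBα-dn mice. The other 5 in IκBα-dn mice were Fas (1.40), Tnfrsf1a (1.12), Tnfrsf11b (0.83), Tnfrsf26 (0.72) and Ltbr (0.67). In WT mice these 5 differed from naive by 0.38 to 0.91 without passing the test, and a difference between genotypes in the change at 3 days was shown for no member (limma, 0 of 44 called, where 0% of all probes were; 0 at an unadjusted p under 0.05, where 3.33% of all probes were).

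The WT calls at 3 days depended on single mice. There were 0 without WT mouse 1 or WT mouse 3 at 3 days or without naive WT mouse 1 or 3, 9 without WT mouse 2 at 3 days, and 7 without the array that set it against an IκBα-dn mouse. In IκBα-dn mice the count was 5 without naive mouse 3 and 6 to 9 without any other. At 3 weeks the calls were Fas in IκBα-dn mice (1.10, SE 0.24, adjusted p = 0.049), which was lost without any of the 6 mice compared, and Tnfrsf13b in WT mice (0.99, SE 0.20, adjusted p = 0.0244), which was kept only without naive mouse 3.

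At 6 weeks the members furthest from naive cords in IκBα-dn mice were Fas (1.87, SE 0.24, adjusted p = 2.69e-05), Tnfsf13 (1.51, SE 0.23, adjusted p = 0.000104), Tnfrsf18 (1.46, SE 0.16, adjusted p = 6.42e-06), Tnfrsf1b (1.42, SE 0.24, adjusted p = 0.00036), Tnfrsf13b (1.37, SE 0.18, adjusted p = 4.49e-05) and Tnfrsf11b (1.35, SE 0.20, adjusted p = 0.00011). The array that set an IκBα-dn mouse at 6 weeks against a naive one gave 1.91, 1.36, 1.08, 1.74, 1.66 and 1.60 for these genes. The array of a WT mouse at 6 weeks over a naive one gave 0.63, 0.81, 0.51, 0.39, 0.44 and 0.17. These are single arrays, and the genes were chosen by their change in IκBα-dn mice in a fit that holds the first of them. In the fit the WT differences from naive were 0.98 (adjusted p = 0.0879) for Fas, 0.71 for Tnfsf13, 0.67 (adjusted p = 0.072) for Tnfrsf18, 0.79 (adjusted p = 0.194) for Tnfrsf1b, 0.75 (adjusted p = 0.0886) for Tnfrsf13b and 0.45 for Tnfrsf11b, none of which passed.

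Another 10 members were called higher at 6 weeks in IκBα-dn mice, with values of 0.40 to 0.94. They were Tnfrsf17 (0.94), Eda2r (0.94), Tnfsf10 (0.93), Tnfrsf1a (0.86), Tnfrsf25 (0.75), Ltbr (0.71), Tnfrsf26 (0.67), Tnfrsf4 (0.57), Tnfsf8 (the CD30 ligand, 0.50) and Tnfrsf19 (0.40). Over 18 alternatives Tnfrsf25 lost its call in 8, Eda2r in 7, Tnfrsf1a and Tnfsf8 in 5 each and Tnfrsf19 in 3. The call of Eda2r, Tnfrsf25 and Tnfrsf19 was lost with the mean of their probes. Tnfrsf17, Tnfsf10, Ltbr, Tnfrsf26 and Tnfrsf4 kept their calls in all 18. Tnfsf13b was lower by 0.65 (SE 0.17, adjusted p = 0.00928), but its other probe was higher by 0.58 (SE 0.13, adjusted p = 0.00245), so that the 2 probes were called in opposite directions. The second probe of Tnfrsf13b changed by −0.13 (SE 0.15). The second probe of Tnfrsf11a (RANK), whose first probe changed by −0.05, was higher by 1.02 at 6 weeks (SE 0.19, adjusted p = 0.000699), and at 3 days by 1.15 in IκBα-dn mice (adjusted p = 0.00159) and 0.88 in WT mice (adjusted p = 0.0284).

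Fitted levels over time took different courses in different members, and a difference between courses or between times after injury was not tested. Relative to naive WT mice, the fitted log2 level of Tnfrsf1b in IκBα-dn mice was 0.11 before injury, 1.72 after 3 days, 0.76 after 3 weeks and 1.53 after 6 weeks. In WT mice it was 1.06 at 3 days, 0.98 at 3 weeks and 0.79 at 6 weeks. Fas levels were −0.17, 1.23, 0.93 and 1.70 in IκBα-dn mice, and 0.83, 0.97 and 0.98 in WT mice after injury. Both genes thus had their 2 highest levels at 3 days and 6 weeks of IκBα-dn mice. Tnfrsf12a stood highest at 3 days, at 0.95 in IκBα-dn mice and 0.86 in WT mice, and was near naive values at 6 weeks, at −0.05 in IκBα-dn mice and 0.09 in WT mice. Tnf levels stayed between 0.05 and 0.49 in all groups and none was called against naive mice, with 0 of 10 probes called at any time in either genotype. Tnfrsf18 was called only at 6 weeks in IκBα-dn mice, with levels of −0.10, 0.38, 0.31 and 1.35 there, and 0.32, 0.48 and 0.67 in WT mice after injury.

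**Figure D5:**
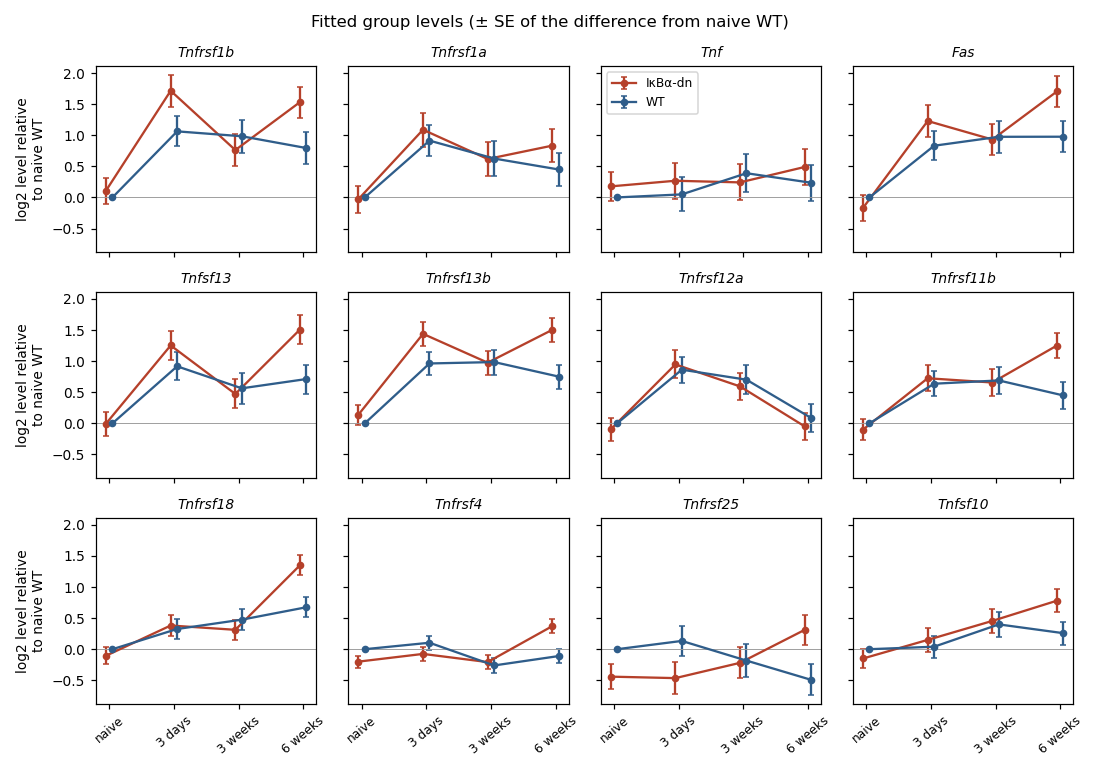
Fitted log2 level of 12 members relative to naive WT mice (y axis, ± SE of the difference from naive WT) in IκBα-dn mice (red) and WT mice (blue) when naive and at 3 days, 3 weeks and 6 weeks after contusion. Tnfrsf1b, Fas, Tnfsf13 and Tnfrsf13b stand above naive WT at every time after injury in both genotypes, and Tnfrsf12a returns to near 0 at 6 weeks.

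The log2 change from naive to 6 weeks was higher in IκBα-dn than in WT mice for 4 of the 44 genes, where 3.02% of all probes were called higher and 9.19% in either direction. These were Tnfrsf25 (difference of the changes 1.25, SE 0.28, adjusted p = 0.0106), Tnfrsf11b (0.90, SE 0.24, adjusted p = 0.0243), Tnfrsf18 (0.78, SE 0.19, adjusted p = 0.0144) and Tnfrsf4 (0.68, SE 0.13, adjusted p = 0.00429). For Tnfrsf25 and Tnfrsf4 part of this lies in naive mice, where the IκBα-dn minus WT differences were −0.44 and −0.20 (neither called). In WT mice Tnfrsf25 changed by −0.49 from naive to 6 weeks (not called), opposite to its rise of 0.75 in IκBα-dn mice. Tnfrsf4 rose by 0.57 in IκBα-dn mice, less than its difference of the changes, so its WT change lay below 0 too. The difference of the changes was 0.90 (SE 0.28, adjusted p = 0.0569) for Fas and 0.63 (SE 0.29, adjusted p = 0.208) for Tnfrsf1b. A larger change in IκBα-dn mice was thus not shown for Fas and Tnfrsf1b. At 3 weeks 0 of 44 genes were called, where 0% of all probes were, and 2 were lower at an unadjusted p under 0.05, as were 0.5% of all probes. The count of 4 was 0 without the 3 arrays with both genotypes at 6 weeks, 7 without naive WT mouse 1 or without the 3-day array that held IκBα-dn mouse 1, 1 without naive IκBα-dn mouse 2, naive WT mouse 3 or WT mouse 1 at 6 weeks, and 2 without naive WT mouse 2 or WT mouse 2 at 6 weeks.

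Genes that act downstream of these receptors were also counted at 6 weeks, when 7.87% of all probes were called higher, 12% lower and 19.9% in either direction. Of 24 genes of receptor-proximal signalling, 10 were higher and 1 lower in IκBα-dn than in WT mice (median log2 difference 0.29), among them Birc3, which encodes the ubiquitin ligase cIAP2 (1.02, SE 0.18, adjusted p = 0.00107), the adaptor Traf5 (0.57, SE 0.12, adjusted p = 0.00251) and Tnfaip3, which encodes the NF-κB inhibitor A20 (0.58, SE 0.14, adjusted p = 0.00659). The deubiquitinase gene Cyld was the lower one (−0.51, SE 0.11, adjusted p = 0.00267). Of 10 genes of IKK and NF-κB, 5 were higher and 0 lower (median 0.37), led by the non-canonical subunit genes Nfkb2 (0.63, SE 0.12, adjusted p = 0.00122) and Relb (0.60, SE 0.13, adjusted p = 0.003), and with them Ikbkg, which encodes the IKK subunit NEMO (0.36, SE 0.10, adjusted p = 0.0196). Nfkbia, the gene of the inhibitor that the transgene alters, was higher by 0.45 at 6 weeks (SE 0.10, adjusted p = 0.00484) and differed by −0.24 in naive mice (SE 0.10, not called); whether its probe reads the transgene is not given in the sources used here. Of 17 genes known to be induced by TNF, 3 were higher and 1 lower (median 0.26), a share near that of all probes: Mmp3 (2.37, SE 0.46, adjusted p = 0.00177), Icam1 (1.06, SE 0.33, adjusted p = 0.03) and Ptgs2 (0.86, SE 0.29, adjusted p = 0.0454) were higher and Mmp9 (−0.48, SE 0.15, adjusted p = 0.0282) was lower. Ngfr (0.29) and Relt (−0.33), family receptors outside the symbol rule, were not called.

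Markers of several cell types differed between genotypes at 6 weeks together with these receptors, and their counts are to be read against the 7.87% of all probes called higher and the 12% called lower. In a segment of whole cord, fewer cells of a type and less RNA per cell cannot be told apart. In IκBα-dn against WT mice, 4 of 10 fibroblast genes (median log2 difference 0.89, from −0.11 to 1.78), 6 of 11 endothelial genes (0.51, from −0.03 to 1.74), 4 of 10 neutrophil genes (0.81, from −0.22 to 2.19), 3 of 8 genes of B cells and plasma cells (0.45, from −0.01 to 0.91), 2 of 10 T cell genes (0.29, from −0.01 to 0.57) and 2 of 17 genes of microglia and macrophages (0.28, from 0.13 to 1.17) were called higher and 0 lower, of which the count for microglia and macrophages is near the share of all probes. Of 14 neuronal genes 9 were lower and 0 higher (−0.89, from −1.97 to 0.22). Astrocyte genes had 1 of 9 higher (0.06) and oligodendrocyte genes 1 higher and 1 lower of 9 (0.02). Against naive IκBα-dn mice, the microglia and macrophage list had 15 of its 17 genes higher at 6 weeks (median 1.22), where 11.6% of all probes were, and 10 at 3 days (0.99), where 5.17% were. In WT mice this list was raised over naive WT mice as well. Its WT median was 0.935 after 6 weeks (5 genes called higher), 1.113 after 3 weeks (7 genes) and 0.805 after 3 days (7 genes). The shares of all probes called higher in these WT comparisons were 0.632%, 1% and 1.8%. The neutrophil list did not show a rise from naive mice at 6 weeks. Its median was −0.02 in IκBα-dn and −0.55 in WT mice, with 0 of 10 genes called in either genotype, where 25.8% and 0.724% of all probes were called. The part of all these cell types in the differences of the TNF superfamily was not tested. Since the arrays give ratios only, which markers lie near 0 in a group cannot be read from them.

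Over the 10 comparisons of genotypes and of times with naive mice, 18 of the 44 members were called in at least 1 and 26 in none, where 30.6% of all probes were called in at least 1. The uncalled members included Tnf, Fasl, Lta, Ltb, Cd40 and its ligand Cd40lg, Cd27 and its ligand Cd70, and Eda with its receptor Edar. Of these 26, 16 stayed within 0.5 of 0 in every comparison, and the values of all 26 ran from −0.56 for Tnfsf15 in IκBα-dn mice at 6 weeks to 0.98 for Tnfsf11 in WT mice at 3 days (SE 0.30, adjusted p = 0.0972). Another probe was called in at least 1 comparison for 5 of them: Cd40, Lta, Tnfrsf11a, Tnfrsf21 and Tnfsf11.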

How the data were processed

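RNA was measured on 2-colour Agilent arrays. According to the methods, the authors scanned them with a GenePix scanner, filtered spots for quality and normalized in limma, by lowess inside each array and by quantiles across them. The deposited log2 ratios of 43379 probes (0 missing) were used unchanged. Neither log base nor direction is stated. They were taken from the values and labels as Cy5 over Cy3, and checked on arrays of 3 days over naive, where 17 genes of microglia and macrophages had medians of 0.95 in IκBα-dn and 1.40 in WT mice. Of 22 arrays, 1 with conflicting labels was left out, which left 21 arrays of 23 mice on 6 slides. Array SDs ran from 0.37 to 0.74, array medians from −0.08 to 0.05, and correlations between arrays averaged 0.31 (lowest −0.32). The number of arrays limits the precision.

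All tests used limma 3.58.1 in R 4.3.3, with each array modelled as its Cy5 group less its Cy3 group plus 1 dye term, weighted for the variance that arrays sharing a mouse have in common (share 0.432). Residual degrees of freedom were 13, prior 3.24 and total 16.2. Benjamini-Hochberg adjustment of p-values ran over all probes of a comparison, and a call is an adjusted p under 0.05. The labels number the mice. The p-values rest on a spread that pools mice and arrays over all 8 groups and is moderated by that of all probes. They do not measure the spread between the mice of the compared groups alone. The annotation gives 1 gene symbol to 33653 probes, several to 56 and none to 9670. The members and all gene lists, the ligand and receptor pairs included, were chosen with earlier results of these data known. Named are members called in any comparison, Tnf, Tnfrsf1a and Tnfrsf1b, up to 3 uncalled members of largest change per role, with the other members given by counts and ranges or as partners of these, and the 4 genes of smallest p in each pathway list. The model was tested on simulated data. Alternatives took arrays as independent, dropped the dye term or set 1 per slide, used arrays with both genotypes alone, a block for replicate number, the array left out (as 3 days or as 3 weeks), centred arrays, scaled arrays, each gene's mean over its probes, only probes with 1 symbol, stricter thresholds, each mouse left out and, chosen after seeing the data, leaving out the 3 arrays with both genotypes at 6 weeks or the 3-day array that held IκBα-dn mouse 1 with WT mouse 2. Promoter windows are from RefSeq (GRCm38.p6), and plots were made in Python 3.11.15 (matplotlib 3.10.9).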

Additional observations from a re-analysis of the deposited data

Results flagged for a closer look

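The change from naive to 6 weeks differed between genotypes, by the test of the difference itself, in 4 members. The difference of the log2 changes (IκBα-dn minus WT) was 1.25 for Tnfrsf25 (adjusted p = 0.0106, limma), 0.90 for Tnfrsf11b (adjusted p = 0.0243), 0.78 for Tnfrsf18 (adjusted p = 0.0144) and 0.68 for Tnfrsf4 (adjusted p = 0.00429). Over 24 alternatives Tnfrsf4 lost its call in 1, Tnfrsf18 in 5, Tnfrsf25 in 7 and Tnfrsf11b in 10. The second probe of Tnfrsf25 gave −0.07 (SE 0.20), and the mean of its probes was among the alternatives that lost its call.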

How the results depend on the processing

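No called difference of a single gene changed direction: of 918 values under alternatives, 731 kept the call and 187 lost it. Among the 206 values of differences that were not called, some crossed 0, such as that of Tnfrsf1a between genotypes at 3 days (−0.43 to 0.65) and that of Tnfrsf1b at 3 weeks (−0.50 to 0.11). Of 279 alternatives of counts 207 stayed within 1.5 times of the count reported. A count that stayed at 0 was taken as unchanged. The 207 thus include comparisons in which 0 members and 0% of all probes were called, and do not measure how stable the counts above 0 are. The cause of the counts that moved further was not tested. The share of all probes called under each alternative is not given here. Between genotypes at 6 weeks 13 members were called. Only arrays with both genotypes gave 8, an adjusted p under 0.01 gave 6, an adjusted p under 0.001 with a fold over 2 gave 0, and leaving out the 3 arrays with both genotypes at 6 weeks (chosen after seeing the data) gave 0. For IκBα-dn mice against naive ones, the 9 calls at 3 days were 5 at 0.01 and 1 at 0.001 with a fold over 2, and the 17 at 6 weeks were 6 at the latter threshold. The 1 call at 3 weeks became 3 with arrays independent, 2 with the conflicting array read as 3 days or as 3 weeks, with arrays centred or scaled, with the mean of all probes, with only probes of 1 symbol or without the 3-day array that held IκBα-dn mouse 1 with WT mouse 2, and 0 without the 6-week arrays or at either stricter threshold. In WT mice, the 4 calls at 3 days were 1 with no dye term, 7 without that 3-day array and 0 with arrays scaled, without the 6-week arrays or at either stricter threshold. The 1 call at 3 weeks was 3 with arrays independent, scaled or without that 3-day array, 2 with the conflicting array as 3 weeks or the mean of all probes, and 0 with a dye term per slide, without the 6-week arrays or at either stricter threshold. The 0 calls at 6 weeks were 4 with a dye term per slide, 1 with the conflicting array as 3 days, 2 with it as 3 weeks and 2 without that 3-day array. The 4 differences of the change at 6 weeks were 10 with arrays independent, 7 without that 3-day array, 1 at 0.01, and 0 without the 6-week arrays or at 0.001 with a fold over 2.

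Leaving out each mouse in turn gave 5 to 11 calls between genotypes at 6 weeks. Against naive IκBα-dn mice it gave 5 to 9 at 3 days, 0 to 0 at 3 weeks and 13 to 18 at 6 weeks, against naive WT mice 0 to 9, 0 to 1 and 0 to 0, and for the difference of the changes at 6 weeks 1 to 7. Where this left 1 mouse in a group, it was assumed to vary like the others. All other comparisons gave 0 calls throughout.

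For mice of the same number, the correlation of their deviations over 68 pairs of groups ran from −0.41 to 0.45 (median 0.02). For mice of different numbers the median was 0.01. The deviation of a mouse is not separable from that of its array partner, so this cannot decide whether such mice shared more than a number. With the replicate number as a block, the calls were 13 between genotypes at 6 weeks, 4 in IκBα-dn mice at 3 days, 0 at 3 weeks in IκBα-dn mice, and 0 at 3 days and 0 at 3 weeks in WT mice. The other counts stayed within 1.5 times.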
